A study of Mus musculus with 12 samples.

Results

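Sterol synthesis and cholesterol handling was followed through 33 listed genes as PU.1 was restored in a mouse acute myeloid leukemia. The genes were taken by symbol from a list, and all 33 were found among the 27179 genes counted. All 33 also passed the filter on low counts, which left 12057 genes for testing. They fall into 5 roles: 7 enzymes from acetyl-CoA to farnesyl diphosphate, 11 enzymes from squalene to cholesterol, 5 genes of sterol sensing, 5 genes of the LXR and efflux arm, and 5 genes of transport, storage and uptake.

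Cells hold their cholesterol level by opposed controls. When membrane sterol is low, SCAP carries the SREBP proteins from the endoplasmic reticulum to the Golgi, where they are cut and released to switch on the genes of synthesis. When sterol is high, the INSIG proteins hold SCAP back, and oxysterols activate the LXR receptors, which switch on export through ABCA1 and ABCG1 and, through MYLIP, lower lipoprotein uptake. Macrophages are known for strong LXR-driven efflux.

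AML246 is a cytogenetically normal leukemia on the C57BL/6 strain that lacks p53 and carries a GFP-linked hairpin against PU.1, and every group shares this genotype and was sorted from the bone marrow of leukemic recipient mice. Doxycycline (Dox) turns the hairpin off. The 4 groups of 3 libraries were untreated cells sorted as GFPhigh, cells after 2 days of Dox sorted as GFPhigh-mid, after 4 days as GFPmid and after 6 days as GFPlow. The gate changed with the time on Dox, so the effects of gate, time and Dox itself cannot be told apart, and AML246 is a single leukemia. In the titles the replicates are named technical, whereas the design text mentions triplicate mice, so a p-value here covers only the spread among these libraries, which may be technical.

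Each library held 4918920 to 7356166 counts, and the 33 genes had 8 to 7412 counts in a library. Spi1, the gene of PU.1, had 54.2 to 67.5 CPM (counts scaled to library size by TMM factors, CPM) in untreated libraries, 98.8 to 123 on day 2, 244 to 270 on day 4 and 438 to 497 on day 6. Summed markers of neutrophils (9 of 9 genes detected) were 591 to 1630 CPM in untreated cells and 61900 to 136000 on day 6. Those of monocytes and macrophages (9 of 9) were 2060 to 2570 CPM in untreated cells, 5930 to 7460 on day 4 and 2450 to 6620 on day 6, and those of myeloid progenitors (7 of 7) were 29000 to 32900 and then 7680 to 9750 on day 6. Markers of B cells (7 of 7) summed to at most 3.63 CPM and erythroid markers (7 of 8 found) to at most 6.12 CPM. Those of eosinophils (4 of 4) varied within groups, with 17.3 to 43.4 CPM in untreated cells and 8.81 to 154 on day 2. In day 4 replicates 1 to 3 they were 47.9, 830 and 453 CPM. In bulk samples, fewer cells of a type and less RNA per cell cannot be told apart.

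Day 6 replicate 2 stood apart within its group. Its neutrophil markers summed to 61900 CPM against 136000 and 120000 in replicates 1 and 3. Its monocyte and macrophage markers summed to 6620 against 2450 and 2730, and its dendritic cell markers (5 of 5) to 30.4 against 5.33 and 6.25. The dendritic sum was mostly Flt3 (26.2 against 2.77 and 1.56 CPM), whereas Itgax was lower there (1.93 against 2.13 and 3.32). T and NK cell markers (7 of 7) summed to 56.6 against 84.2 and 72.8, mostly Nkg7 (33.1 against 82.7 and 70.5). Higher there were Cd8a (11.4 against 0.64 and 0.195), Cd3g (6.43 against 0 and 0.195), Cd3d (2.89 against 0 and 0.195) and Cd3e (2.25 against 0 and 0). Trac was at 0.482 against 0.213 and 0, and Klrb1c was lower (0 against 0.64 and 1.76). Day 6 results of the 33 genes are therefore given with and without this library, those of neighbouring lists as counts, and the part of these marker differences in the results was not tested.

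No sterol gene was called on day 2, calls on day 4 were more often upward than downward, and on day 6 the shares called higher and lower were near those of all genes. On day 2 edgeR's quasi-likelihood test called 0 of 33 genes higher and 0 lower at a Benjamini-Hochberg adjusted p under 0.05, where 1.05% and 0.406% of all tested genes were called. At an unadjusted p under 0.05 there were 2 higher, Lrp1 and Pmvk, and 0 lower, against 950 and 776 of the 12057 tested genes. DESeq2 called 1 higher and limma voom 0, where they called 2.32% and 0.912% of the genes they tested. On day 4, 12 were higher and 4 lower (22.1% and 20.2% of all genes), with a median log2 fold change of 0.32 beside -0.01 over all genes. On day 6, 13 were higher and 10 lower (35% and 32.9% of all genes), with a median of -0.00 in the sterol genes and 0.00 over all genes.

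From day 2 to day 4, 5 sterol genes rose and 1 fell (15% and 10.2% of all genes). From day 4 to day 6, 2 rose and 11 fell (23.6% and 22.6% of all genes), and the median log2 change was -0.39 beside -0.03 over all genes. Over the 4 groups together, 25 of 33 genes changed, against 68.7% of all genes. Group means were highest on day 4 for 14 genes, in untreated cells for 8, on day 6 for 9 and on day 2 for 2. None was lowest on day 4. The same shares over all genes were not computed, so these counts describe the 33 genes only and are not a trait set against other genes. Without day 6 replicate 2, 18 genes passed as higher and 4 as lower on day 4 (25.4% and 24.8% of all genes), while day 6 gave 14 and 10 (36.1% and 34.6%). The step from day 2 to day 4 then gave 14 and 2 (18.9% and 15.4%), and that from day 4 to day 6 gave 6 and 15 (28% and 28% of all genes).

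The scaling between libraries bears on these directions. With plain library totals in place of TMM factors, the median of all genes moved by -0.52 on the log2 scale on day 6, by -0.13 on day 4 and by -0.43 from day 4 to day 6. The day 6 calls were then 3 higher (Lrp1, Mylip and Msmo1) and 17 lower (18.9% and 56.1% of all genes), so higher and lower below mean relative to most other genes. With upper-quartile factors they were 5 higher and 13 lower (26.3% and 44.1%). The day 4 calls were 8 higher and 6 lower with library totals (17.3% and 27% of all genes) and 8 and 5 with upper-quartile factors (18.6% and 26.5%).

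Promoters were read to see what the sterol genes share beyond their function. RefSeq windows of GRCm38.p6, from 250 bases before to 50 after a gene start, were found for 27 of the 33 genes (36 windows) and searched on both strands. The NF-Y box, CCAAT, a site of a factor known to work beside SREBP, was in 61.1% of these windows against 37.4% of all 32851 windows, and the Sp1 box, GGGCGG, in 77.8% against 35.7%. By gene, 21 of the 27 held an NF-Y box in some window, against 41.1% of all genes. Of 15 synthesis genes with a window, 14 held one, all but Acat2, and of 4 LXR and efflux genes only Mylip did. Genes with several windows have more chances of a match, and Dhcr7 held the box only in a window inside its gene span. The exact sterol element core TCACNCCAC was in 2.78% against 1.24% (Hmgcs1 alone). The ETS core of PU.1 sites, GAGGAAGT, was in 8.33% against 3.2%. Its matches lay in Acat2 and in 2 overlapping windows of Scap that held the same site. By gene it was in 2 of 27, against 3.69% of all genes. A direct repeat of AGGTCA with a spacer of 4 and 1 mismatch allowed, the pattern used for the LXR element, was in 0 against 0.25%. None of these motifs contains another, and a match describes letters only. Sites that depart further from these patterns were not searched for. A missing match therefore does not show that a promoter lacks such a site.

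The stretches below are the 150 bases before the start, 5′ to 3′ on the gene's strand. Hmgcs1 is shown because it holds the exact sterol element core searched for. The others are 3 synthesis enzymes and Srebf2 that were lowest in day 6 replicate 2, and the exporter gene Abca1, which was highest there. All but Hmgcs1 were picked after their values were seen. Capitals mark the NF-Y box (CCAAT, or ATTGG where it lies on the other strand) and, in Hmgcs1, also the sterol element. The positions are chr13:119690201-119690350 (plus strand) for Hmgcs1, chr5:4104698-4104847 (minus) for Cyp51 and chr13:8885456-8885605 (plus) for Idi1. They are chr1:169969206-169969355 (minus) for Hsd17b7, chr15:82147119-82147268 (plus) for Srebf2 and chr4:53159896-53160045 (minus) for Abca1. For Hsd17b7 and Abca1 the RefSeq start used here lies inside the annotated gene span.
Hmgcs1: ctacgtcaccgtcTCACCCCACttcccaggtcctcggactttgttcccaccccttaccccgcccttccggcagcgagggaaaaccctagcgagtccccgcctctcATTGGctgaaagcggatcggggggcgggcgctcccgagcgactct
Cyp51: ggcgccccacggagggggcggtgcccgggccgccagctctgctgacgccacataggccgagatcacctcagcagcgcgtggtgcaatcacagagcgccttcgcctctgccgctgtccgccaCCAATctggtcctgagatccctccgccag
Idi1: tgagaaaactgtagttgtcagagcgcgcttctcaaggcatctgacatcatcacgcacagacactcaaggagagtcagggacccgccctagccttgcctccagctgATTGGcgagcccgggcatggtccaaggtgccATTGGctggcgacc
Hsd17b7: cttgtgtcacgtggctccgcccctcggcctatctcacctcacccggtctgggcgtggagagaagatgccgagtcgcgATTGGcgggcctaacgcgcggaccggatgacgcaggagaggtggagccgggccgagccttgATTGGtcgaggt
Srebf2: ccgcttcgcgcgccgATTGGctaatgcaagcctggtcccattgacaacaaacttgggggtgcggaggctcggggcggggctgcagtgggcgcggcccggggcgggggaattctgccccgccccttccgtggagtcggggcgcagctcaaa
Abca1: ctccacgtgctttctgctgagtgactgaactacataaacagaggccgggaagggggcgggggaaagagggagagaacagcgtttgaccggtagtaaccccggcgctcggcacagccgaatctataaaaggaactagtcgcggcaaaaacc
Idi1 and Hsd17b7 hold 2 NF-Y boxes each in these stretches, Hmgcs1, Cyp51 and Srebf2 hold 1, and Abca1 holds 0.

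Among the enzymes from acetyl-CoA to farnesyl diphosphate, the thiolase and the HMG-CoA synthase fell on day 6 while 3 later steps rose, though with library totals none of these 3 was called on that day. Acat2 (Entrez 110460, chromosome 17, 12943042 to 12960725), the cytosolic thiolase of the first condensation, had 15.3, 15.5 and 15.7 CPM in untreated replicates 1 to 3 and 9.17, 7.55 and 7.81 on day 6. The day 6 libraries all lay below the untreated ones, and the fall was 0.92 ± 0.13 on the log2 scale (SE; edgeR quasi-likelihood adjusted p = 5.14e-05). Hmgcs1 (208715, chromosome 13, 119690351 to 119708260), the HMG-CoA synthase, had 111, 133 and 109 CPM in untreated cells, 80.1, 71.7 and 84.4 on day 4 and 79.5, 45.7 and 69.7 on day 6. It was below every untreated library at both days, with log2 fold changes of -0.58 (adjusted p = 0.0115) and -0.86 ± 0.16 (adjusted p = 4.45e-04). The day 4 call was lost without day 4 replicate 2 (adjusted p = 0.0532).

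Pmvk, Mvd and Fdps, which carry mevalonate on to farnesyl diphosphate, moved the other way. Fdps (110196, chromosome 3, 89093588 to 89101967), the farnesyl diphosphate synthase at the branch to protein prenylation, had 12.5, 18.8 and 14.2 CPM in untreated cells and 36.3, 34.0 and 31.4 on day 4, where all libraries lay above the untreated ones. On day 6 it had 29.2, 14.8 and 31.4 CPM, so replicate 2 fell back among the untreated libraries. Its log2 fold changes were 1.16 ± 0.24 on day 4 (adjusted p = 0.00224) and 0.72 ± 0.25 on day 6 (adjusted p = 0.021), the latter 1.00 without day 6 replicate 2. The day 6 call was lost without untreated replicate 1 or 3 or day 6 replicate 1 or 3 (adjusted p up to 0.102). Mvd, the mevalonate diphosphate decarboxylase, had 18.9, 16.7 and 27.9 CPM in untreated cells and 43.1, 21.4 and 38.3 on day 6. Its groups overlapped, its log2 fold change of 0.69 (adjusted p = 0.0254) was 0.94 without day 6 replicate 2, and omitting untreated replicate 1 or 2 or day 6 replicate 1 or 3 ended the call (up to 0.114).

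Pmvk, the phosphomevalonate kinase, had 16.2, 17.1 and 13.9 CPM in untreated cells, 24.0, 27.0 and 22.9 on day 4 and 23.7, 19.3 and 22.3 on day 6. All day 4 and day 6 libraries lay above the untreated ones. The log2 fold changes were 0.65 on day 4 (adjusted p = 0.00134) and 0.46 on day 6 (adjusted p = 0.00612), which was -0.06 with library totals. Mvk, the mevalonate kinase, had 17.9, 15.5 and 19.0 CPM in untreated cells and 11.9, 15.9 and 11.1 on day 6, a log2 change of -0.41 (adjusted p = 0.035) that 5 of 12 single omissions took past the threshold (up to 0.137). Idi1, the isopentenyl diphosphate isomerase, was not called at any day and had 11.9, 4.66 and 10.9 CPM on day 6 against 10.8 to 14.9 in untreated libraries.

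Of the 11 enzymes from squalene to cholesterol, 4 rose and 4 fell on day 6 (36.4% each, near the 35% and 32.9% of all genes). Dhcr7 (13360, chromosome 7, 143823167 to 143848410), the reductase of the last step, had 59.8, 75.7 and 77.6 CPM in untreated cells, 60.0, 59.2 and 58.9 on day 4 and 22.6, 24.4 and 24.2 on day 6. Its 3 day 6 libraries lay far below all others and close together. The fall was 1.58 ± 0.10 on the log2 scale (adjusted p = 8.67e-08), and the step from day 4 carried most of it (-1.32). On day 4 its small fall (-0.26, adjusted p = 0.0462) was lost under 10 of 12 single omissions.

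Sqle and Lss, which oxidise squalene and close it into a ring, fell as well. Lss (16987, chromosome 10, 76531565 to 76557139), the lanosterol synthase, had 11.8, 11.3 and 9.48 CPM in untreated cells and 5.12, 2.73 and 3.91 on day 6. The groups did not overlap, and the log2 fold change was -1.49 ± 0.26 (adjusted p = 2.38e-04). Sqle (20775, chromosome 15, 59315092 to 59331193), the squalene epoxidase, had 49.2, 54.3 and 50.9 CPM in untreated cells and 36.5, 6.75 and 26.9 on day 6. All 3 day 6 libraries were lower than untreated, replicate 2 by far the most. The log2 fold change of -1.17 ± 0.39 (adjusted p = 0.0212) was -0.70 (adjusted p = 2.33e-04) without that library. Nsdhl, the sterol dehydrogenase, fell by 0.61 on the log2 scale (adjusted p = 0.00104), with 13.8 to 18.9 CPM on day 6 below 23.7 to 27.3 in untreated libraries.

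Msmo1, Tm7sf2, Fdft1 and Sc5d rose on day 6, though with library totals only Msmo1 was called, and each was lowest in replicate 2 of that day. Msmo1 (66234, chromosome 8, 64718123 to 64733578), the methylsterol monooxygenase, had 26.9, 32.2 and 24.7 CPM in untreated cells, 44.3, 47.5 and 50.5 on day 4 and 70.0, 33.9 and 59.9 on day 6. Every day 4 and day 6 library was above every untreated one. The log2 fold change on day 6 was 0.96 ± 0.21 (adjusted p = 0.00137) and 1.22 without replicate 2. Sc5d, the lathosterol desaturase, had 52.0, 57.8 and 57.6 CPM in untreated cells and 92.6, 56.6 and 91.4 on day 6, so replicate 2 lay at the untreated level. Its log2 fold change was 0.52 (adjusted p = 0.00843), 0.72 without replicate 2 and -0.01 with library totals.

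Fdft1, the squalene synthase, had 15.3, 19.4 and 19.0 CPM in untreated cells and 34.8, 16.4 and 34.2 on day 6, with replicate 2 again at the untreated level. Its log2 fold change was 0.66 (adjusted p = 0.029) and 0.95 without replicate 2, and omitting untreated replicate 1 or 3 or day 6 replicate 1 or 3 ended the call (up to 0.12). Tm7sf2, a sterol reductase, had 3.20 to 3.40 CPM in untreated libraries and 7.68, 4.34 and 6.64 on day 6. The groups did not overlap, the log2 fold change was 0.90 (adjusted p = 0.0183), and the call was lost without day 6 replicate 1 or 3 (up to 0.0745).

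Cyp51, Hsd17b7 and Ebp were not called on day 6. Cyp51, the lanosterol demethylase, had 33.5, 39.8 and 37.1 CPM in untreated cells, 46.8, 48.6 and 50.4 on day 4 and 37.5, 7.39 and 32.6 on day 6. Its log2 fold change on day 6 was -0.53 (adjusted p = 0.248) and -0.07 without replicate 2. Without that library its day 4 rise of 0.40 was called (adjusted p = 0.00265). Hsd17b7, the ketosteroid reductase, had 14.2, 16.3 and 12.8 CPM in untreated cells and 24.5, 8.52 and 22.3 on day 6, that is 2 libraries above and 1 below all untreated ones. It was called on day 6 only without replicate 2 (0.70, adjusted p = 0.00154). Ebp, the sterol isomerase, had 41.4 to 52.1 CPM in untreated libraries, 59.4 to 62.7 on day 4 and 49.3, 58.7 and 51.4 on day 6. Its day 4 rise (0.35 on the log2 scale, adjusted p = 0.0154) was lost without untreated replicate 1 or day 4 replicate 3 (up to 0.0692).

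**Figure D1:**
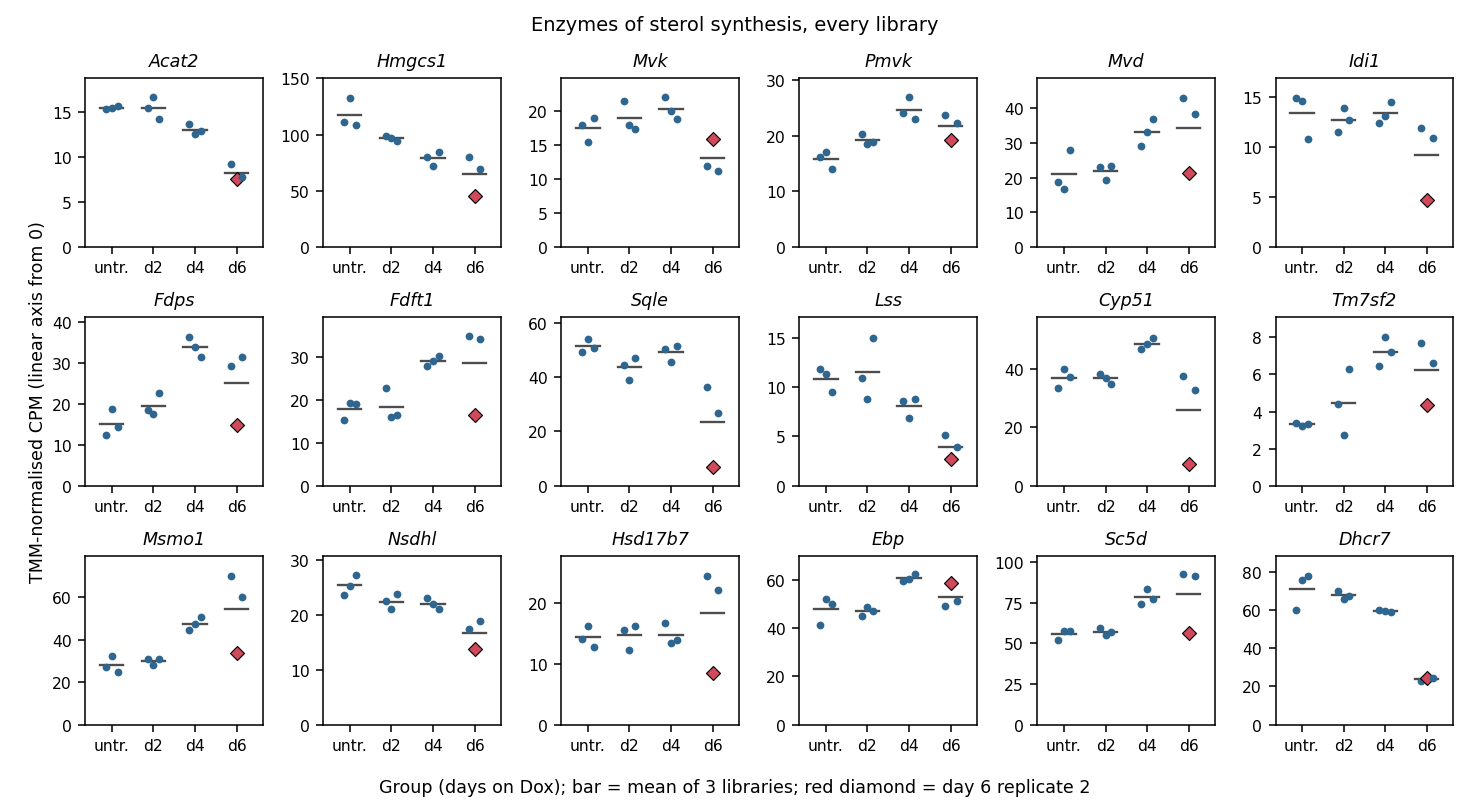
TMM-normalised CPM of the 18 synthesis enzymes in each of the 12 libraries, by group (3 libraries each; bars are group means, the red diamond is day 6 replicate 2; linear axes from 0). Acat2, Lss and Dhcr7 were lower in all day 6 libraries than in any untreated one, and replicate 2 was the lowest day 6 library for 15 of the 18.

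In the sensing genes, Insig1 fell and Insig2 rose under TMM factors, and with library totals Insig2 was level. Insig1 (231070, chromosome 5, 28071412 to 28078662), a SCAP retention protein and itself an SREBP target, had 43.7, 53.0 and 52.3 CPM in untreated cells, 66.5, 59.5 and 57.0 on day 4 and 39.9, 18.2 and 33.8 on day 6. All day 6 libraries were below all earlier ones. The log2 fold change was -0.71 ± 0.21 (adjusted p = 0.0105), or -0.43 (adjusted p = 0.00761) without day 6 replicate 2. Insig2 (72999, chromosome 1, 121304353 to 121332662), the other retention protein, had 22.6, 21.0 and 24.9 CPM in untreated cells and 32.2, 31.5 and 32.8 on day 6. The day 6 libraries were nearly equal and all above the rest, replicate 2 included. The rise was 0.50 ± 0.10 on the log2 scale (adjusted p = 8.91e-04), and -0.02 with library totals.

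The ratio of Insig2 to Insig1 counts does not depend on scaling. It was 0.516, 0.396 and 0.475 in untreated libraries and 0.807, 1.73 and 0.971 on day 6, with every day 6 library above every earlier one. Scap (235623, chromosome 9, 110333288 to 110384949), the escort of SREBP, had 107, 115 and 110 CPM in untreated cells and 75.5, 79.4 and 74.4 on day 6. The groups did not overlap, and the log2 fold changes were -0.48 on day 4 (adjusted p = 0.00641) and -0.54 ± 0.12 on day 6 (adjusted p = 0.00168).

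The SREBP genes themselves did not pass the test on day 6. Srebf1 had 89.1 to 118 CPM in untreated libraries, 117 to 138 on day 4 and 91.2 to 106 on day 6. Its rise on day 4 (0.38, adjusted p = 0.019) was lost without untreated replicate 1 or 2 or day 4 replicate 1 or 3 (up to 0.0829). Srebf2, which drives the synthesis genes, had 129, 151 and 153 CPM in untreated cells, 197, 190 and 180 on day 4 and 194, 65.7 and 174 on day 6. Replicates 1 and 3 of day 6 were above every untreated library and replicate 2 was below all 11 other libraries, which gave a log2 fold change of -0.00 (adjusted p = 0.994). Without replicate 2 it was 0.35 (adjusted p = 0.0053) on day 6 and was called on day 4 too (adjusted p = 0.00197).

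The LXR and efflux genes included the largest rise on day 6 (Abca1). Of the 5, 4 were called higher and Nr1h3 lower, where 35% and 32.9% of all genes were called. Without day 6 replicate 2, 3 of 5 were called higher (36.1% of all genes), and with library totals Mylip alone was (18.9% of all genes). Abca1 (11303, chromosome 4, 53030789 to 53159988), the exporter that loads cholesterol onto apolipoprotein, had 8.93, 4.59 and 10.5 CPM in untreated cells, 15.5, 15.6 and 15.6 on day 4 and 7.04, 95.6 and 8.20 on day 6. The day 6 rise rested on replicate 2, since the other 2 libraries lay inside the untreated range. Its log2 fold change of 2.24 ± 0.84 (adjusted p = 0.0362) became -0.07 (adjusted p = 0.848) without replicate 2, and leaving out any 1 untreated library also ended the call (adjusted p up to 0.0893). Limma voom, a fit of only these groups, no filter on low counts, upper-quartile or library-total scaling, a replicate block and a 1.5-fold threshold ended it too, and over all alternatives the adjusted p ran from 0.0113 to 0.848. From day 4 to day 6 it was 1.28 (adjusted p = 0.214) with and -1.02 (adjusted p = 0.00592) without replicate 2. All 3 day 4 libraries were above all untreated ones. That difference of 0.96 was not called (adjusted p = 0.404), except without day 6 replicate 2 (0.0031) and in the fit of only these groups (0.0106).

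Abcg1 (11307, chromosome 17, 31057694 to 31117984), the exporter to lipoprotein particles, had 52.6, 32.9 and 76.3 CPM in untreated cells, 93.6, 83.0 and 94.5 on day 4 and 83.8, 191 and 87.1 on day 6. Every day 4 and day 6 library was above every untreated one. The log2 fold change on day 6 was 1.17 ± 0.34 (adjusted p = 0.0103), and 0.67 (adjusted p = 0.0497) without replicate 2. Mylip (218203, chromosome 13, 45389742 to 45411940), an LXR target that marks lipoprotein receptors for degradation, had 47.7, 32.4 and 54.0 CPM in untreated cells, 51.3, 42.6 and 43.9 on day 4 and 86.2, 139 and 83.8 on day 6. It was high on day 6 in all 3 libraries and level before, with a log2 fold change of 1.21 ± 0.21 (adjusted p = 2.60e-04), or 0.93 without replicate 2.

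The receptors LXRβ and LXRα, encoded by Nr1h2 and Nr1h3, moved apart. Nr1h3 (22259, chromosome 2, 91184061 to 91202829) had 6.95, 6.13 and 9.91 CPM in untreated cells, 3.75, 4.52 and 5.58 on day 4 and 1.71, 4.02 and 2.73 on day 6. Every day 4 and day 6 library was below every untreated one, and the log2 fold change on day 6 was -1.40 ± 0.30 (adjusted p = 0.00103). Nr1h2 had 74.2 to 74.6 CPM in untreated libraries and 115, 88.4 and 102 on day 6, a log2 fold change of 0.45 (adjusted p = 0.00113) that was -0.08 with library totals. The ratio of Nr1h2 to Nr1h3 counts, followed within each library without regard to gene length, was 7.52 to 12.1 in untreated cells, 15.1 to 25.4 on day 4 and 67.5, 22.0 and 37.1 on day 6, with no overlap with untreated cells at either day.

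Transport, storage and uptake genes were mostly highest on day 4. Lrp1 (16971, chromosome 10, 127538157 to 127621148), a large endocytic receptor of lipoproteins and proteases, had 64.2, 63.2 and 101 CPM in untreated cells, 220, 168 and 151 on day 2, 320, 392 and 381 on day 4 and 125, 386 and 157 on day 6. Every Dox library was above every untreated one, and day 6 replicate 2 alone stayed at the day 4 level. Its log2 fold change was 1.24 on day 2 (adjusted p = 0.173, and 0.0112 without day 6 replicate 2) and 2.26 ± 0.39 on day 4 (adjusted p = 0.00109). On day 6 it was 1.55 ± 0.38 (adjusted p = 0.00423), or 0.89 (adjusted p = 0.00659) without that library, and the drop from day 4 was then called (-1.37, adjusted p = 8.45e-04).

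Npc2, the soluble protein that takes cholesterol from lysosomal lipoprotein, had 527, 647 and 700 CPM in untreated cells, 1049, 1044 and 1088 on day 4 and 493, 875 and 535 on day 6. The day 4 libraries lay above all others, with a log2 fold change of 0.76 (adjusted p = 0.0123, lost without untreated replicate 1 at 0.0536). Per kilobase of the deposited gene length, Npc2 was by far the most abundant of the 33 genes, at 191.5 CPM per kb in untreated cells against 46.8 for Soat1, the next. Npc1, its membrane partner, had 99.0 to 129 CPM in untreated libraries, 128 to 147 on day 4 and 84.0 to 106 on day 6, and fell from day 4 to day 6 (-0.51, adjusted p = 0.00554).

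Soat1, which esterifies cholesterol for storage, had 260 to 314 CPM on day 4 and 174, 245 and 185 on day 6. Its fall from day 4 to day 6 (-0.47, adjusted p = 0.0393) was lost under 6 of 12 single omissions (up to 0.14). Stard4, a soluble sterol carrier, was not called in any comparison. It had 44.0 to 51.5 CPM in untreated libraries and 51.8, 15.6 and 54.1 on day 6.

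**Figure D2:**
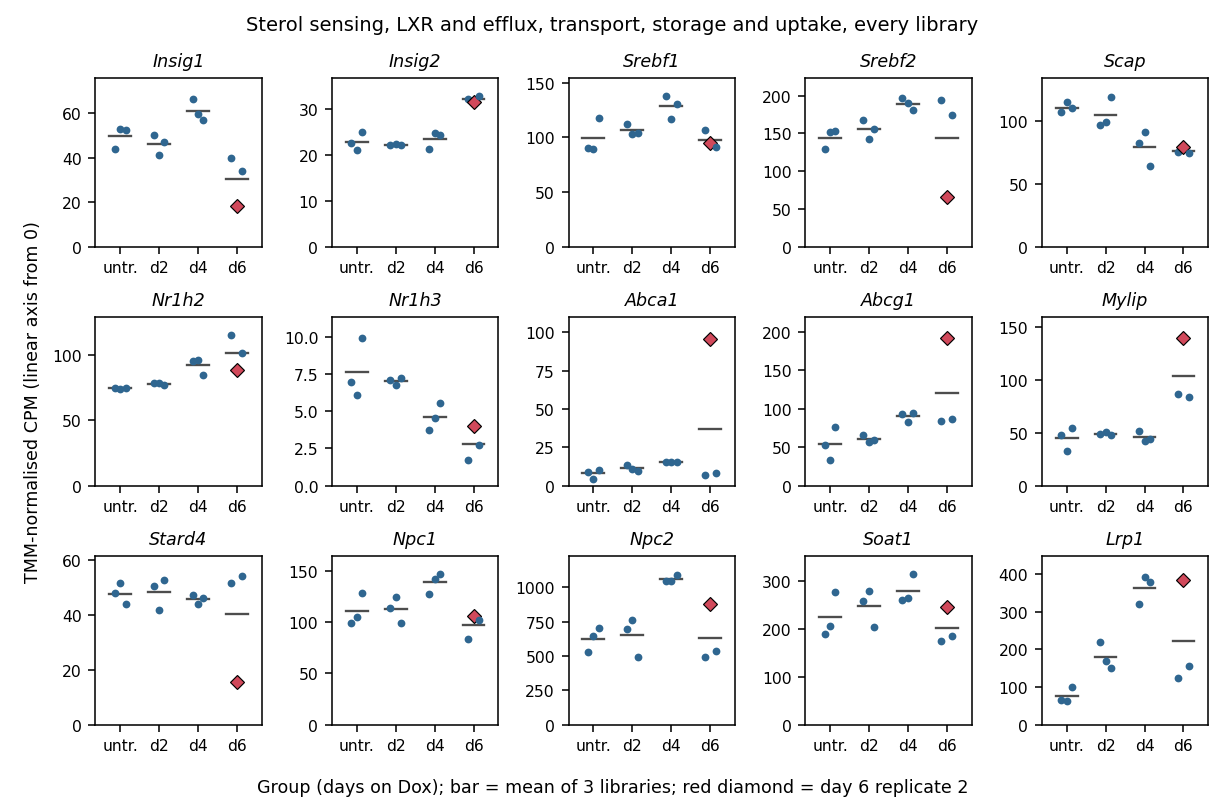
TMM-normalised CPM of the sensing, LXR and efflux, and transport, storage and uptake genes in each library, by group (3 libraries each; bars are group means, the red diamond is day 6 replicate 2; linear axes from 0). Abca1 was at 7.04, 95.6 and 8.20 CPM on day 6, while Insig2 and Mylip were above the untreated range in all 3 day 6 libraries (with library totals the Insig2 log2 fold change was -0.02).

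**Figure D3:**
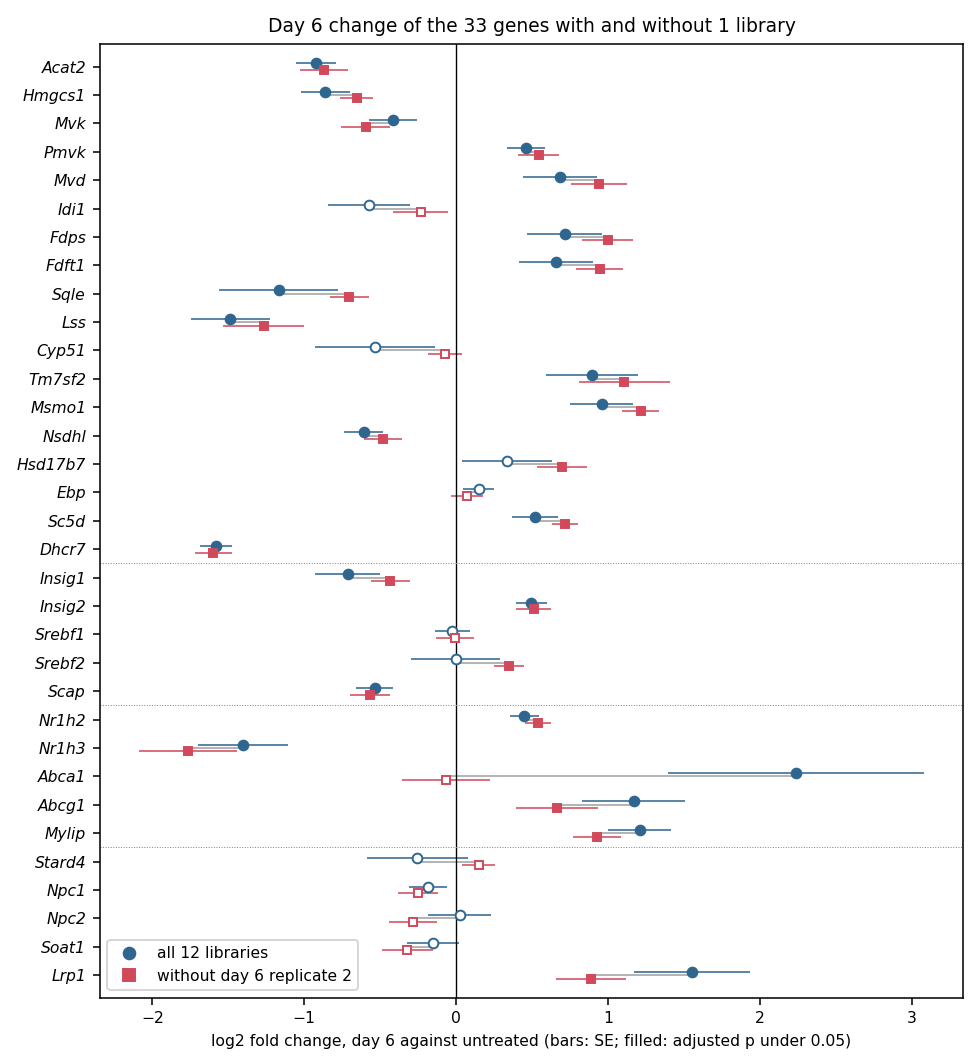
Log2 fold change (bars, SE) of the 33 genes on day 6 against untreated cells under TMM factors, fitted with all 12 libraries (blue circles) and without day 6 replicate 2 (red squares). Filled symbols have an adjusted p under 0.05. Abca1 moved from 2.24 to -0.07, while Dhcr7 and Insig2 stayed in place; with library totals Insig2, Nr1h2, Pmvk and Sc5d came out at or just below 0.

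For the genes not given both ways above, the day 6 log2 fold change without replicate 2 was as follows. Among synthesis genes, Acat2 came to -0.87, Hmgcs1 to -0.66, Mvk to -0.60, Lss to -1.27, Nsdhl to -0.48 and Dhcr7 to -1.60, with each still called. Pmvk at 0.54 and Tm7sf2 at 1.11 were still called too, while Idi1 (-0.57 with and -0.23 without) and Ebp (0.15 and 0.07) were called in neither fit. Insig2 (0.51), Scap (-0.56), Nr1h2 (0.54) and Nr1h3 (-1.77) kept their calls. Srebf1 (-0.02 and -0.00), Stard4 (-0.26 and 0.15), Npc1 (-0.18 and -0.25), Npc2 (0.02 and -0.28) and Soat1 (-0.15 and -0.32) were called in neither, and Stard4 and Npc2 changed sign.

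From day 4 to day 6, leaving replicate 2 out ended the call of Nsdhl (-0.27, adjusted p = 0.0774). It added falls of Cyp51 (-0.47), Ebp (-0.28), Nr1h3 (-1.04), Abca1 and Lrp1, and rises of Msmo1 (0.45), Hsd17b7 (0.67), Sc5d (0.23) and Nr1h2 (0.24). The falls of Npc1 (-0.58) and Soat1 (-0.64) were still called.

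Day 6 replicate 2 held a shift of the sterol genes, with most synthesis genes low and some efflux genes high. Against the mean of replicates 1 and 3, 9 of the 33 genes were under 0.5 of the level: Cyp51 (0.211), Sqle (0.213), Stard4 (0.294), Srebf2 (0.357), Hsd17b7 (0.364), Idi1 (0.408), Fdft1 (0.476), Fdps (0.488) and Insig1 (0.493). Of all tested genes, 4.07% were so low. It was the lowest of the 3 libraries for 15 of 18 synthesis genes (83.3%, against 42.7% of all genes), with a median ratio of 0.61 beside 0.99 over all genes. Abca1 was 12.6 times, the uptake receptor Lrp1 2.74 times and Abcg1 2.24 times as high as in the other 2 libraries. These 3 of 33 genes over 2-fold higher (9.09%) were near the share of all genes (7.76%). It was the highest of the 3 libraries for 4 of 5 LXR and efflux genes (80%, against 41.1% of all genes), while Nr1h2 had a ratio of 0.816.

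Several enzymes of the pathway did not share that shift. Dhcr7 had a ratio of 1.04, Ebp of 1.17 and Mvk of 1.38. Insig2 and Srebf1 were level at 0.969 and 0.958. As few as 0.565% of all tested genes had a ratio as low as that of Cyp51, and 0.49% one as high as that of Abca1. Of the 9 low genes, the 5 with a promoter window (Idi1, Cyp51, Hsd17b7, Insig1 and Srebf2) all held an NF-Y box, as did 11 other synthesis genes with higher ratios, while Abca1 and Lrp1, the high genes with a window, held none. This library also had the marker sums given above, whose part in the shift was not tested.

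The contrast of synthesis with efflux was put into 1 value per library, the mean log2(CPM + 1) of the 18 synthesis genes minus that of the 5 LXR and efflux genes. It was -0.21, 0.37 and -0.43 in untreated replicates 1 to 3, -0.27, -0.30 and -0.12 on day 2, -0.15, -0.12 and -0.15 on day 4 and -0.10, -2.07 and -0.31 on day 6. The group means were -0.09 ± 0.41 (SD, n = 3), -0.23 ± 0.10, -0.14 ± 0.02 and -0.82 ± 1.08. Day 6 replicate 2 was the only library outside the untreated range at any day. The day 6 mean minus the untreated mean was -0.73 with it and -0.11 without it, the latter less than the spread of the untreated libraries. The day 4 mean minus the untreated mean was -0.05, and 0.18 without untreated replicate 2.

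The group means of both arms were higher on day 4 than in untreated cells. The synthesis mean was 4.63 ± 0.07 in untreated cells and 4.88 ± 0.02 on day 4, with no overlap, and the efflux mean was 4.72 ± 0.36 and 5.02 ± 0.03, with overlap. Untreated replicate 2 was the lowest untreated library for 5 of 5 LXR and efflux genes (32.8% of all genes) and the highest for 10 of 18 synthesis genes (38.1%). Its synthesis mean was 4.70 against 4.57 and 4.63 in untreated replicates 1 and 3, within the day 2 values of 4.56 to 4.72. Its efflux mean was 4.34 against 4.78 and 5.05, though Nr1h2 was nearly equal (74.2 against 74.6 and 74.6 CPM). These directions were opposite to those of day 6 replicate 2, but for synthesis far smaller (median ratio 1.12, beside 0.61). Its neutrophil markers summed to 1630 CPM against 591 and 730, whose part was not tested.

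**Figure D4:**
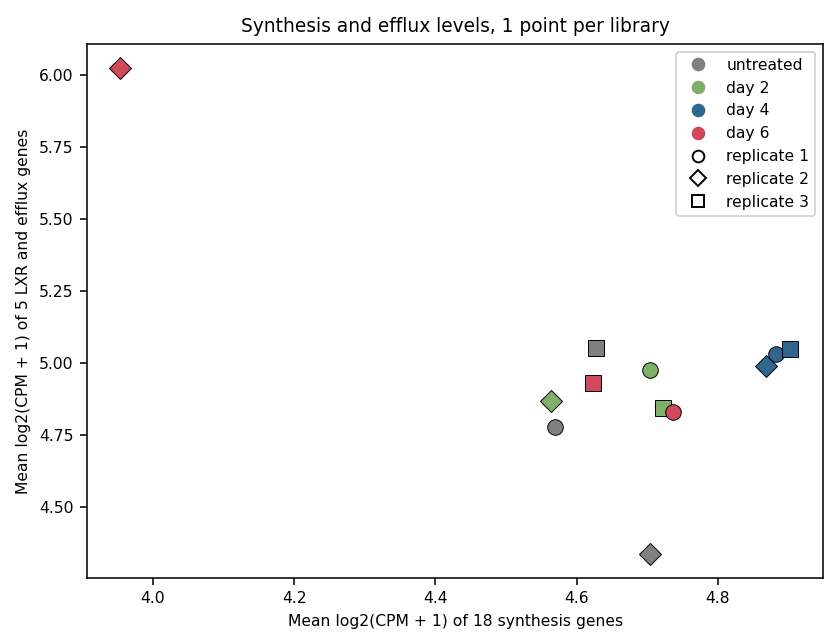
Mean log2(CPM + 1) of the 18 synthesis genes (x) against that of the 5 LXR and efflux genes (y), 1 point per library, colour for group and shape for replicate; axes do not start at 0. Day 6 replicate 2 lies alone at 3.95 and 6.03, and the 3 day 4 libraries lie together at 4.87 to 4.9 and 4.99 to 5.05.

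The 4 gene pairs set in ratio here were picked after their values were seen, so their ratios describe the libraries and were not tested. Msmo1 and Dhcr7 had the largest called rise and the largest fall among the synthesis genes on day 6. Their ratio was 0.45, 0.425 and 0.319 in untreated libraries, 0.422 to 0.459 on day 2, 0.738 to 0.858 on day 4 and 3.1, 1.39 and 2.48 on day 6. Day 4 lay above all earlier libraries and day 6 above all of day 4, replicate 2 included. The ratio of Abca1 to Sqle was 0.0846 to 0.206 in untreated libraries and 0.193, 14.2 and 0.304 on day 6, so its high value rested on replicate 2.

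**Figure D5:**
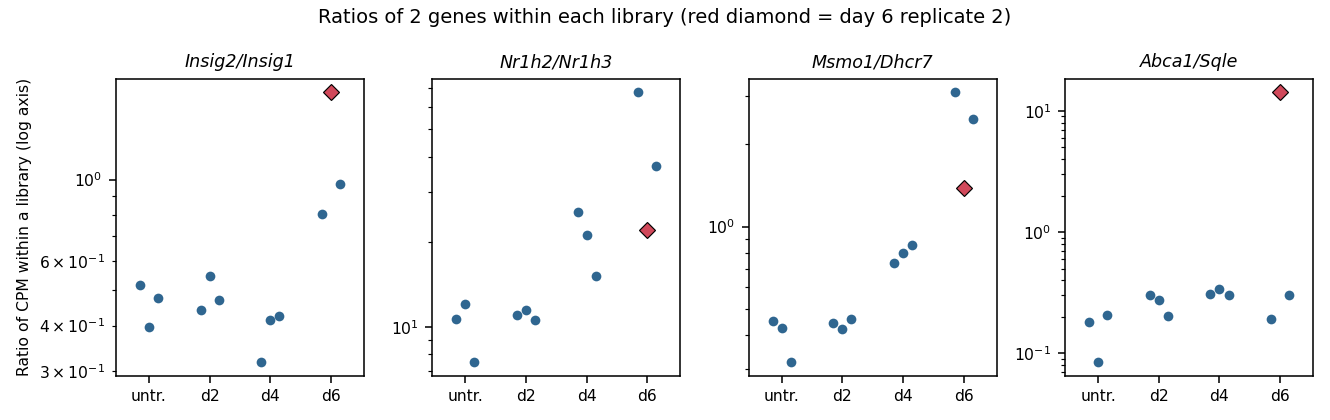
Ratio of the CPM of 2 genes within each library, by group (log axes; the red diamond is day 6 replicate 2). Msmo1/Dhcr7 was higher in all 3 day 4 libraries than earlier and higher again on day 6, while Abca1/Sqle was high in 1 library, at 14.2.

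Neighbouring parts of lipid metabolism were read from lists that share no gene with the 33, comparing day 6 with untreated cells. Of all genes, 35% and 32.9% were called higher and lower there. These shares were 36.1% and 34.6% without day 6 replicate 2, and 18.9% and 56.1% with library totals. LXR targets and partners had 7 higher and 1 lower of 12 tested, 8 and 1 without day 6 replicate 2, and 4 and 5 with library totals. Arl4c, a small GTPase and LXR target, had 2.51 to 5.60 CPM in untreated libraries and 35.6 to 53.8 after 6 days (log2 fold change 3.38, adjusted p = 1.20e-06). Abca7, a lipid transporter, rose by 1.00 (adjusted p = 6.44e-06), and Nr1d1, a heme-binding receptor of the clock, fell by 1.38 (adjusted p = 5.26e-04).

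Lysosomal, ester and oxysterol genes had 11 higher and 3 lower of 17, 10 and 2 without day 6 replicate 2, and 8 and 4 with library totals. Cyp27a1, the sterol hydroxylase that makes an oxysterol ligand of LXR, had 1.13 to 2.16 CPM in untreated libraries, 37.4 to 43.6 on day 4 and 14.1, 30.5 and 12.3 on day 6 (log2 fold change 3.48, adjusted p = 1.26e-05). It followed the order of Lrp1, highest on day 4 and, among day 6 libraries, in replicate 2. Nceh1, a hydrolase of cholesterol esters, had 9.05 to 10.5 CPM in untreated libraries and 32.3 to 40.9 after 6 days (1.92, adjusted p = 5.66e-08). Osbpl1a (-0.97) and Vps13c (-0.76), lipid transfer proteins, fell.

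Fatty acid synthesis, the arm of SREBP-1, had 4 higher and 7 lower of 13, with and without day 6 replicate 2, and 2 and 10 with library totals. Fads1, a fatty acid desaturase, had 71.1 to 76.7 CPM in untreated libraries and 23.5, 12.2 and 17.2 on day 6 (log2 fold change -2.08, adjusted p = 2.96e-07). Gpam, the acyltransferase that starts glycerolipid synthesis, fell by 1.8 (adjusted p = 6.22e-07). Me1, the malic enzyme, had 3.90 to 5.03 CPM in untreated libraries and 38.6, 16.2 and 41.8 on day 6 (2.80, adjusted p = 5.93e-05), and Elovl1, an elongase of very long chains, rose by 0.91 (adjusted p = 5.35e-06).

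SREBP processing had 3 higher and 3 lower of 12, 2 and 3 without day 6 replicate 2, and 1 and 11 with library totals. Aup1 rose by 0.24 on the log2 scale (adjusted p = 0.0143). Erlin2 (-0.62, adjusted p = 2.16e-05) and Sec23a, a coat protein of the vesicles that leave the endoplasmic reticulum (-0.35, adjusted p = 0.00439), fell. Prenyl, dolichol and quinone genes had 2 higher (Zmpste24, 0.54, and Icmt, 0.33) and 5 lower of 15, led by Rabggtb (-0.65) and Fntb (-0.63), subunits of prenyl transferases. These counts were 3 and 6 without day 6 replicate 2 and 0 and 13 with library totals. Lipoprotein uptake had 4 higher and 1 lower of 7, with and without day 6 replicate 2, and 3 and 4 with library totals. Lrp8, a lipoprotein receptor, rose by 1.16 (adjusted p = 2.83e-04), and Lrpap1, the chaperone of Lrp1, fell by 0.65 (adjusted p = 0.00555).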

How the data were processed

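RNA of sorted AML246 cells was measured by bulk sequencing in 12 libraries. The authors deposited raw read counts per Entrez gene with a gene length, without normalisation, per the file headers. Tools named in the submitters' processing notes, with no role given, are featureCounts, limma 3.22.0, edgeR 3.8.2 and CASAVA 1.8.2, and the genome is mm10. No aligner and no strand setting is given in the sources used here. Symbols and positions came from RefSeq (GRCm38).

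The analysis used edgeR 4.0.16 in R 4.3.3. Genes were kept by filterByExpr (12057), scaled by TMM factors (0.737 to 1.15) and fitted over all 12 libraries with the group as the only term (robust quasi-likelihood, 8 residual degrees of freedom). Tests were two-sided and adjusted over all tested genes by Benjamini-Hochberg, at 0.05. In a library 3 counts correspond to 0.393 to 0.640 CPM, which covers counting error only. Levels are TMM-normalised CPM. The procedure was tested on simulated data.

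All 33 genes are named. Library values are given for the largest day 6 changes of each role, and of each neighbouring list up to 2 called genes with the largest rise and 2 with the largest fall at day 6, among those of at least 5 CPM. The members and lists were chosen with earlier results of these data known. The alternatives were DESeq2 1.42.0, limma voom (3.58.1), RLE, upper-quartile and library-total scaling, no filter and a filter of 5 CPM in 3 libraries, the replicate number as a block, a fit limited to the compared groups, a 1.5-fold threshold (glmTreat), and each library left out. Promoters of 6 genes were not analysed here, and some items are not reported here.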

Additional observations from a re-analysis of the deposited data

How the results depend on the processing

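Leaving out each library gave these ranges of genes called higher and lower: 0 to 1 and 0 to 0 on day 2, 5 to 18 and 1 to 4 on day 4, 9 to 14 and 9 to 10 on day 6, 0 to 14 and 0 to 2 from day 2 to day 4, 2 to 6 and 7 to 15 from day 4 to day 6, and 20 to 31 for any change. The shares of all genes ran from 0.22% to 3.09% and 0.0896% to 1.84% on day 2. They were 17.8% to 25.4% and 13.7% to 24.8% on day 4, and 32.4% to 36.1% and 29.9% to 34.6% on day 6. From day 2 to day 4 they were 10.4% to 18.9% and 4.75% to 15.4%, and from day 4 to day 6 18.8% to 28% and 16.2% to 28%. For any change they were 61.5% to 74.8%. The synthesis minus efflux value moved between -0.311 and 0.084 on day 2, -0.217 and 0.178 on day 4 and -1.099 and -0.11 on day 6, each less untreated. Under every omission 17 of 23 calls on day 6, 6 of 16 on day 4 (Pmvk, Fdps, Tm7sf2, Msmo1, Scap and Lrp1), 8 of 13 from day 4 to day 6 and 0 of 6 from day 2 to day 4 were kept. The shares of calls kept over all genes were not computed. Over the omissions Srebf2 on day 6 ran from -0.271 to 0.349, Abca1 on day 6 from -0.066 to 2.715 and Abca1 from day 4 to day 6 from -1.024 to 1.756; the values that turned (0.349, -0.066 and -1.024) came without day 6 replicate 2.

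Library totals gave 3 higher and 17 lower on day 6 (18.9% and 56.1% of all genes) and 2 and 5 from day 2 to day 4 (10.4% and 19.2%). From day 4 to day 6 library totals gave 1 and 23 (11% and 51.9% of all genes). This scaling turned Pmvk to -0.060, Ebp to -0.357, Sc5d to -0.014, Insig2 to -0.021 and Nr1h2 to -0.076 on day 6. From day 4 to day 6 it turned Sc5d to -0.391 and Nr1h2 to -0.264. Upper-quartile factors gave 5 higher on day 6 (26.3% of all genes), 3 and 2 from day 2 to day 4 (12.3% and 15.7%), and 18 lower from day 4 to day 6 (32.8%). A 1.5-fold threshold (glmTreat) left 2 and 0 on day 4 (8.18% and 4.19%) and 3 and 5 on day 6 (19.6% and 16.8%). It left 0 and 0 from day 2 to day 4 (3.83% and 1.27%), and 1 and 1 from day 4 to day 6 (8.06% and 5.15%). DESeq2 called 1 higher on day 2 (2.32%) and 2 lower on day 4 (17.1%), and no filter 2 lower on day 4 (12%). The fit of only day 2 and day 4 called 17 and 3 (19.8% and 17.2%). For the differences not set by the scaling or the threshold itself, the cause was not tested.

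With the replicate number as a block, 13 and 3 genes were called on day 4 (21.7% and 19.2% of all genes) and 12 and 10 on day 6 (34.4% and 32.5%). The steps gave 5 and 1 from day 2 to day 4 (14.3% and 8.91%) and 2 and 11 from day 4 to day 6 (22.8% and 22.2%). Day 2 gave 0 and 0 (0.846% and 0.323%), and 24 were called for any change (67%). The call of Abca1 on day 6 was lost (edgeR quasi-likelihood adjusted p = 0.117). Libraries of the same number did not deviate together (mean correlation 0.006 over 18 pairs, -0.172 to 0.29, with 4 of 12 closest to their own number). With groups of 3, this check cannot settle whether libraries of the same number share a mouse or batch. Groups of 3 limit the precision, and several genes rest on few counts. Day 6 replicates 1 to 3 held 8, 25 and 14 counts of Nr1h3 and 24, 17 and 20 of Lss. They held 43, 47 and 40 of Acat2 and 56, 29 and 56 of Idi1. Tm7sf2 had 24, 23 and 23 counts in untreated replicates 1 to 3.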
